A study of Mus musculus with 6 samples.

Results

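The signals of 40 genes of the p53 response and of programmed cell death were compared between whole mouse embryos from control and from diabetic pregnancies. The genes were given as a list of 17 for p53 and its targets, 13 of the Bcl2 family and 10 for caspases and their inhibitors. The list was drawn up with earlier results of these data known. Every probe set of the array that the platform's table pairs with 1 of these symbols alone was taken, which gave 100 of 45101 probe sets and 38 of the 40 genes, out of 18194 genes so named on the array. Trp53, the p53 gene itself, and Bax, a pore-forming member of the Bcl2 family, had no probe set under this rule and were not analysed here. Of the 100 probe sets, 83 were bright enough to be tested and 17 were not, and each of the 38 genes kept at least 1 tested probe set.

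Control embryos came from FVB dams that were not diabetic. Diabetes-exposed embryos came from FVB dams that had received 2 injections of streptozotocin at 100 mg per kg, a toxin of the insulin-producing beta cells, and whose blood glucose exceeded 250 mg per dl. All embryos were taken at day 10.5 of gestation and were selected as normal in shape, so that embryos with a visible defect do not enter these values. Each group was represented by 3 pools, each pool combined RNA of 3 embryos from different pregnancies, and each pool was read on 1 Affymetrix Mouse 430 2.0 array. The pools are the replicates, their sex is not given, and with no injected but non-diabetic dams the drug and the diabetes cannot be told apart. The array gives 1 signal per probe set in arbitrary units, scaled by the authors to the same mean on each array, so that a level is relative to the other transcripts of a pool and probe sets are compared only with themselves. In a pool of whole embryos, fewer cells of a type and less RNA per cell cannot be told apart.

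p53 is a transcription factor that is held at a low level by the ubiquitin ligase Mdm2 and its relative Mdm4. After DNA damage or other stress it is released, and it switches on genes that halt the cell cycle, aid repair or start apoptosis. In apoptosis, BH3-only proteins of the Bcl2 family such as Puma (gene Bbc3) and Noxa (Pmaip1) bind the protective members Bcl2, Bcl2l1, Bcl2l2 and Mcl1, which frees Bax and Bak1 to open the outer mitochondrial membrane. Cytochrome c then assembles Apaf1 with Casp9, which cuts the executioner caspases, while inhibitor of apoptosis proteins such as Xiap hold caspases in check. Death of neuroepithelial cells through p53 is a known route to neural tube defects in mice.

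p53 binds DNA as 4 subunits on 2 copies of a 10-base half-site. The sequences below show where that half-site stands before the start of measured p53 targets, since these are the stretches through which p53 could act on the genes whose levels follow. They were read from RefSeq promoter windows of mouse build GRCm38.p6, each 300 bases long with 250 bases before and 50 after a listed start, and are printed 5′ to 3′ on the strand of the gene, with the letters that match the p53 consensus half-site in capitals. The search used the consensus by name, which reads the same on both strands, with no mismatch allowed. The first 2 belong to genes that rose in diabetes-exposed embryos, the next to a gene that fell, and the last 4 to genes that did not pass the test.
Ccng1, chr11:40755447-40755486, minus strand: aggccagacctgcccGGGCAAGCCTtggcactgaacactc
Sesn1, chr10:41887251-41887290, plus strand: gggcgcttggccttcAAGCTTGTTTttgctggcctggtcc
Ei24, chr9:36797320-36797359, minus strand: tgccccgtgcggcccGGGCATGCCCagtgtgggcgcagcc
Cdkn1a, chr17:29090891-29090952, plus strand: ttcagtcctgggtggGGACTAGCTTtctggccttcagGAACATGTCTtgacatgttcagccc
Mdm2, chr10:117710920-117710959, minus strand: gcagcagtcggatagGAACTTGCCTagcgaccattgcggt
Gadd45a, chr6:67037423-67037462, minus strand: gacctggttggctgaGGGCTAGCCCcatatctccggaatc
Aen, chr7:78895922-78895961, plus strand: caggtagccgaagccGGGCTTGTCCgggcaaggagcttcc

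The capitals begin 185 bases before the start of Ccng1, 173 before Sesn1, 10 before Ei24, 186 before Mdm2, 40 before Gadd45a and 121 before Aen. Cdkn1a held 2 such runs, 73 and 51 bases before its start, near enough for a full site with a spacer of at most 13 bases, and it was the 1 member with such an arrangement against 0.0572% of all protein-coding genes. Of 34 members with a promoter window, 10 held at least 1 half-site, or 29.4%, beside 8.54% of 17492 protein-coding genes. The share was 61.5% in p53 and its targets (8 of 13), 9.09% in the Bcl2 family (1 of 11) and 10% in caspases and their inhibitors (1 of 10). The p53 targets were listed because p53 is known to act on them, so this share describes the list. A match is a run of letters, not a bound site, and the window does not reach the introns and distant elements where other p53 sites lie. Among the genes with a half-site before their start, both directions of change and no call occurred.

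The arrays and pools differed in ways that bear on every member. The 3′ over middle ratio of the poly-A spikes, bacterial transcripts added before labelling, was 2.10, 2.07 and 2.52 in the control pools against 6.56, 3.47 and 7.00 in the exposed pools, so that diabetes-exposed replicates 1 and 3 stood apart and replicate 2 lay nearest the controls. The 3′ over 5′ ratio of beta-actin ran the same way, at 1.71 to 2.19 against 10.1, 3.09 and 10.3. All 18 markers of whole embryo tissue were bright enough to be tested, with summed signals of 104901 to 112004 in the controls and 114252 to 135228 in the exposed pools. Most of that sum came from the globins Hbb-y, Hba-x and Hbb-bh1, so it does not check the other tissues. Of 18 markers of decidua and trophoblast, 13 were on the array and 2 were tested, and their summed signal was 5808.6 to 6665.7 in the controls and 186.6 to 241.2 in the exposed pools. Prl8a2, a decidual prolactin, made up most of the sum in the controls, at 6211 ± 447 against 36.3 ± 4.88 in the exposed pools (SD, n = 3 each). The other tested marker, Psg21, was dim and did not pass, at a log2 fold change of 0.71 (limma adjusted p = 0.43). The difference in this list thus rests on 1 gene. Of 14 markers of macrophages, 2 rose and 0 fell, beside 17.6% higher and 19.9% lower over all tested genes. With the spike ratio in the fit 0 of these markers passed. Their summed signals were 1696.5 to 1836.3 in the controls and 2054.7 to 2515.8 in the exposed pools. Whether tissue was carried over, and what part it or the labelling has in the results below, was not tested, apart from the values given with the spike ratio in the fit.

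Of the 38 measured genes, 5 rose and 8 fell in diabetes-exposed embryos, at an adjusted p under 0.05 in limma, and 25 did not pass. The genes that rose were Ccng1, Sesn1, Birc2, Birc6 and Api5, and those that fell were Zmat3, Phlda3, Btg2, Ei24, Bbc3, Bcl2l2, Mcl1 and Casp2. These 13 genes are 34.2% of those measured, beside 37.5% of all 13956 tested genes, of which 17.6% were higher and 19.9% lower. The members were therefore called about as often as genes at large. The groups did not overlap for 23 of the 38 genes, or 60.5%, beside 52.3% of all genes. The median log2 fold change was -0.094 over the members and -0.00025 over all genes, and the members ranged from -0.98 for Bbc3 and Zmat3 to 0.79 for Fas, which did not pass. The split by direction depended on how arrays were scaled: 13 members rose and 2 fell with median centring (34.8% and 9.44% of all genes), 8 rose and 6 fell with quantile normalization (24.1% and 15.4%) and 8 rose and 6 fell with cyclic loess (20.3% and 17%). With each gene read at the mean of its tested probe sets, 4 members rose and 18 fell, Mdm2 among them at -1.47 (limma adjusted p = 0.0057). The shares of all genes in that setting were not taken, so these 2 counts have no background.

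**Figure D1:**
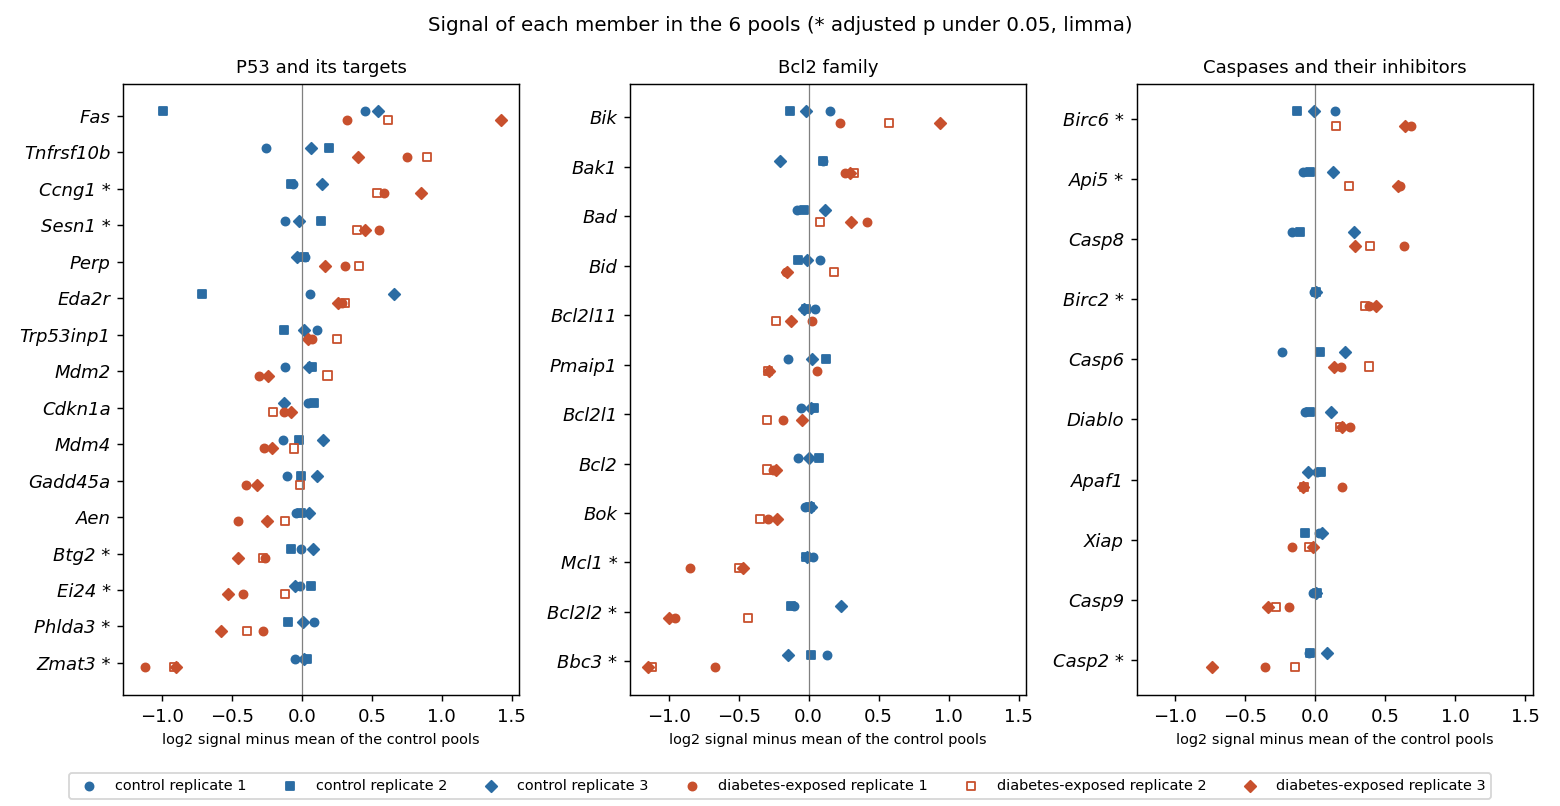
Signal of each of the 38 measured genes in the 6 pools, as log2 signal minus the mean of the 3 control pools, at the brightest tested probe set of the gene, by role. Each point is 1 pool, blue for control and red for diabetes-exposed, the open square is diabetes-exposed replicate 2, and a star marks an adjusted p under 0.05 in limma. Zmat3 and Bbc3 lie farthest to the left with no overlap between the groups, Ccng1 lies clearly to the right, and Mdm2 and Cdkn1a straddle the controls; 5 genes rose and 8 fell on this scale, and 13 rose and 2 fell with median centring.

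Among p53 and its targets, 2 of 16 measured genes rose and 4 fell as deposited, whereas 4 rose and 1 fell with median centring, and 3 rose and 2 fell with quantile and with cyclic loess normalization. As deposited, 10 did not pass, and the median log2 fold change was -0.13. The 6 called genes are 37.5% of the group, beside 37.5% of all tested genes (17.6% higher and 19.9% lower). Under the scalings the shares of all genes are those given above. The 2 classic readouts of p53 activity, Mdm2 and Cdkn1a, were not among those called at their brightest probe sets. A dimmer probe set of Mdm2, 1427718_a_at, passed as lower, at -2.82 (limma adjusted p = 0.0046), and is described further below. Mdm2, the ubiquitin ligase that p53 induces and that marks p53 for destruction, at probe set 1423605_a_at read 878.7, 1004 and 991 in the controls and 774.2, 1085.9 and 807 in the exposed pools. The groups overlapped, and the log2 fold change was -0.12 (SE 0.14, limma adjusted p = 0.55). Cdkn1a, the p21 inhibitor of the cell cycle whose promoter letters are shown above, at 1424638_at read 407.6, 419 and 361.1 against 362.4, 342.5 and 373.8. These groups overlapped too, with a log2 fold change of -0.14 (SE 0.13, adjusted p = 0.44). Mdm4, the partner of Mdm2, also did not pass, at -0.18 (SE 0.11, adjusted p = 0.24). In a separate array experiment on single embryos, the authors listed Cdkn1a as increased in diabetes-exposed embryos, which differs from the reading here.

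Ccng1, cyclin G1, a p53 target that recruits a phosphatase to Mdm2, had the largest increase among the genes called. Its probe set 1420827_a_at read 1901.8, 1882.7 and 2192.6 in the controls and 2989.2, 2879.6 and 3583.6 in the exposed pools. Every exposed pool lay above every control pool, and the log2 fold change was 0.66 (SE 0.11, limma adjusted p = 0.0027). Dimmer probe sets of Ccng1 went the other way: 1450017_at fell, at -0.69 (adjusted p = 0.037), and 1450016_at was at -0.27 (adjusted p = 0.20). Sesn1, a sestrin that restrains mTORC1 signalling under stress, read 833.4, 992.9 and 892.8 in the controls against 1322.7, 1186 and 1235.2 in the exposed pools. Again the groups did not overlap, and the log2 fold change was 0.46 (SE 0.10, adjusted p = 0.0090). This probe set, 1433711_s_at, may bind several transcripts; without such probe sets Sesn1 stood at -0.30 (adjusted p = 0.068). A second probe set of that kind for Sesn1, 1438931_s_at, rose by 0.94 (adjusted p = 0.0047).

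Zmat3, a zinc finger protein of RNA binding and splicing that p53 induces, had the largest decrease in this group. It was read by 1 probe set, 1449353_at, at 996.8, 1056.5 and 1040.7 in the controls and 473.7, 547.9 and 554.2 in the exposed pools. The exposed pools stood at 525 ± 44.8 against 1031 ± 30.9 in the controls (SD, n = 3 each), a 1.97-fold decrease (log2 fold change -0.98, SE 0.11, limma adjusted p = 0.00061). Its call held under each scaling, at -0.66 to -0.85, and without each pool in turn. Phlda3, a repressor of the kinase Akt, read 536.2, 471.1 and 508.2 against 415.7, 384.4 and 338.6, without overlap, at -0.42 (SE 0.13, adjusted p = 0.035). Btg2, an antiproliferative regulator of mRNA decay, read 642.5, 611.7 and 681.2 against 538.1, 531.3 and 470.7, without overlap, at -0.33 (SE 0.11, adjusted p = 0.048). Ei24, a membrane protein of the endoplasmic reticulum linked to p53-driven death and to autophagy, read 3538.6, 3737.6 and 3461.5 against 2676.2, 3297.5 and 2484.4, at -0.35 (SE 0.11, adjusted p = 0.037). For Ei24 the exposed replicate 2 lay nearest the controls.

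These 3 smaller decreases were less secure than that of Zmat3. Phlda3 did not pass with control replicate 1, 2 or 3 or exposed replicate 3 left out (-0.34 to -0.46, adjusted p 0.066 to 0.12), nor under any of the scalings. Btg2 did not pass with any pool but exposed replicate 2 left out (-0.27 to -0.37, adjusted p 0.079 to 0.15), nor under any of the scalings. Ei24 did not pass with the same pools left out in turn (-0.27 to -0.38, adjusted p 0.062 to 0.12), and it passed with quantile and cyclic loess normalization, at -0.48 and -0.46.

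The other targets in this group did not pass, and their values ran both ways. Perp, a desmosomal protein of p53-driven apoptosis, stood at 0.29 (adjusted p = 0.059) with no overlap between groups, and it passed as higher under each of the scalings (0.42 to 0.61). Aen, a nuclease of apoptotic DNA, stood at -0.27 (adjusted p = 0.079) and also did not overlap. Gadd45a, a growth arrest and repair factor, was at -0.24 (adjusted p = 0.27), and Trp53inp1, a nuclear cofactor of p53, was at 0.12 (adjusted p = 0.37). The death receptors were dim. Fas read 57.4, 21.1 and 61.4 in the controls and 52.6, 64.5 and 112.8 in the exposed pools, Tnfrsf10b read 22.3, 30.4 and 27.8 against 44.9, 49.5 and 35.2, and Eda2r read 89, 52.1 and 134.6 against 104.2, 105.8 and 102.3. Their log2 fold changes were 0.79, 0.68 and 0.28 with adjusted p of 0.25, 0.22 and 0.56 in limma. The groups overlapped for Fas and Eda2r and not for Tnfrsf10b, whose signals lie near 26.7, the lowest mean signal tested.

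In the Bcl2 family, 0 of 12 measured genes rose and 3 fell as deposited, whereas 3 rose and 1 fell with median centring, and 3 rose and 3 fell with quantile and with cyclic loess normalization. As deposited, 9 did not pass, and the median log2 fold change was -0.17. The 3 called genes are 25% of the family, beside 37.5% of all tested genes (17.6% higher and 19.9% lower). Under the scalings the shares of all genes are those given above. Of the 3 genes that fell, Bbc3 promotes death, and Mcl1 and Bcl2l2 protect from it. Bbc3 encodes Puma, the BH3-only protein through which p53 most directly starts apoptosis. It was read by 1 probe set, 1423315_at, at 323.4, 299 and 265.9 in the controls and 185.7, 135.8 and 133.3 in the exposed pools. The groups did not overlap, and the fall from 296 ± 28.9 to 152 ± 29.6 (SD, n = 3 each) was a log2 fold change of -0.98 (SE 0.19, limma adjusted p = 0.0047). It held under each scaling (-0.65 to -0.75), without each pool in turn, and with exposed replicate 2 as the only exposed pool.

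Of the protective members, Mcl1, a short-lived guardian of mitochondria that embryos need around implantation, read 5096.7, 4921 and 4953.2 in the controls and 2774.5, 3540.6 and 3606.1 in the exposed pools at its brightest probe set, 1448503_at. All 3 exposed pools lay below the controls, and the log2 fold change was -0.60 (SE 0.11, limma adjusted p = 0.0036), which did not pass with median centring (-0.29, adjusted p = 0.11). Bcl2l2, known as Bcl-w, read 648.9, 637 and 818.3 against 359.8, 517.1 and 349. The groups did not overlap, with exposed replicate 2 nearest the controls, and the log2 fold change was -0.79 (SE 0.18, adjusted p = 0.0093), or -0.48 with median centring (adjusted p = 0.059). Bcl2 itself read 464.7, 516.2 and 492.1 against 411.4, 399.6 and 418.1 at its brightest probe set, 1457687_at. Here the groups did not overlap, yet the log2 fold change of -0.26 (SE 0.11) did not pass (adjusted p = 0.11). Bcl2l1, which encodes Bcl-xL, was at -0.18 (adjusted p = 0.23).

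The remaining members that promote death did not pass. Pmaip1, which encodes Noxa and is a p53 target like Bbc3, was at -0.17 (adjusted p = 0.43) with overlapping groups. Bak1, the partner of Bax in the mitochondrial pore, was at 0.29 (adjusted p = 0.10), and Bok, a related pore-former, was at -0.29 (adjusted p = 0.057), both without overlap. Among the BH3-only proteins, Bcl2l11 (Bim) stood at -0.11 (adjusted p = 0.43), Bid at -0.045 (adjusted p = 0.83), Bad at 0.27 (adjusted p = 0.14) and Bik at 0.58 (adjusted p = 0.095). Bak1, Bad and Bik passed as higher under each of the scalings, at 0.46 to 0.61 for Bak1, 0.45 to 0.59 for Bad and 0.78 to 0.89 for Bik.

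Among caspases and their inhibitors, 3 of 10 genes rose, 1 fell and 6 did not pass, and the median log2 fold change was 0.22. The 4 called genes are 40% of the group, beside 37.5% of all tested genes (17.6% higher and 19.9% lower). With median centring 6 rose and 0 fell, and with quantile and cyclic loess normalization 2 rose and 1 fell, while more genes rose than fell over the whole array under each of these scalings. The genes that rose were Birc2, Birc6 and Api5 as deposited, these with Casp8, Casp6 and Diablo under median centring, and Birc2 and Casp8 under the other two scalings. Birc2, a ubiquitin ligase of the inhibitor of apoptosis family that acts below TNF receptors, read 1103.1, 1109.1 and 1112.6 in the controls and 1446.9, 1416.9 and 1496.9 in the exposed pools. The 3 control pools lay close together and far below the exposed pools, and the log2 fold change was 0.39 (SE 0.084, limma adjusted p = 0.0076). Birc6, a giant ubiquitin ligase of the same family also called Bruce, read 2923.8, 2418.8 and 2636.6 against 4250.7, 2942 and 4131.8. Exposed replicate 2 lay just above the highest control, the groups did not overlap, and the log2 fold change was 0.49 (SE 0.15, adjusted p = 0.030). Api5, a nuclear protein described as an inhibitor of apoptosis, read 10983.7, 11340.1 and 12754.5 against 17761.1, 13770.6 and 17596.1 at probe set 1437593_x_at, at 0.48 (SE 0.11, adjusted p = 0.012). The groups did not overlap, and replicate 2 was again the lowest of the exposed pools. The name of this probe set marks it as able to bind other transcripts. Without such probe sets Api5 stood at -0.0088 (limma adjusted p = 0.95).

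Casp2, a nuclear caspase activated below p53, was the 1 gene of this group that fell. It read 2806.3, 2813.7 and 3072.7 in the controls and 2251.3, 2622.3 and 1734.8 in the exposed pools, at -0.41 (SE 0.14, limma adjusted p = 0.0498). The groups did not overlap, but the call sat at the threshold and did not pass with any pool but exposed replicate 2 left out (-0.25 to -0.44, adjusted p 0.10 to 0.13). Casp2 passed with quantile and cyclic loess normalization, at -0.48 in each (adjusted p = 0.017 and 0.025), and not with median centring (-0.098, adjusted p = 0.63). Of the genes that rose, Birc2 passed without each pool in turn. Birc6 did not pass without control replicate 2 or 3 or exposed replicate 1 or 3 (0.39 to 0.49, adjusted p 0.068 to 0.11), and Api5 not without control replicate 1 or exposed replicate 1 (0.44 and 0.42, adjusted p = 0.056 and 0.053). With quantile and cyclic loess normalization Birc6 stood at 0.35 and 0.39 (adjusted p = 0.061 and 0.059) and Api5 at 0.17 and 0.12 (adjusted p = 0.082 and 0.24).

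The core of the caspase cascade did not pass at its brightest probe sets. Casp9, the initiator caspase of the mitochondrial route, read 430.1, 437.7 and 435.1 in the controls and 380.4, 357 and 344.1 in the exposed pools. Its groups did not overlap, and the log2 fold change was -0.27 (SE 0.12, limma adjusted p = 0.11). Xiap, the direct inhibitor of executioner caspases, read 2896, 2714 and 2949.7 against 2540.7, 2761.9 and 2819.3, which overlap, at -0.076 (SE 0.083, adjusted p = 0.52). Apaf1, the scaffold of the apoptosome, was at 0.0055 (adjusted p = 0.98). Casp8, the initiator below death receptors, was at 0.43 (adjusted p = 0.055), Casp6, an executioner, at 0.23 (adjusted p = 0.20), and Diablo, the mitochondrial antagonist of Xiap and Birc2, at 0.20 (adjusted p = 0.10). Casp8 passed as higher under each of the scalings (0.59 to 0.75).

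Counted by probe set rather than by gene, 7 of the 83 tested probe sets rose and 25 fell. That is 38.6%, beside 36.2% of all 30025 tested probe sets, of which 14.4% were higher and 21.8% lower. Only 8 of the 25 decreases are at the probe set by which a gene was read, and the others belong to dimmer probe sets of the same genes. Of the 21 members with more than 1 tested probe set, 15 spanned over 1 log2 unit between their own probe sets, or 71.4%, beside 39.5% of 6515 such genes on the array. The median span was 1.58 log2 units in the members and 0.77 in all such genes. A span can widen with the number of probe sets of a gene and with dim signals, and the comparison was matched for neither. In 16 of the 21 members, the brightest probe set had a higher log2 fold change than the median of the others (76.2%, beside 66.1% of all).

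**Figure D2:**
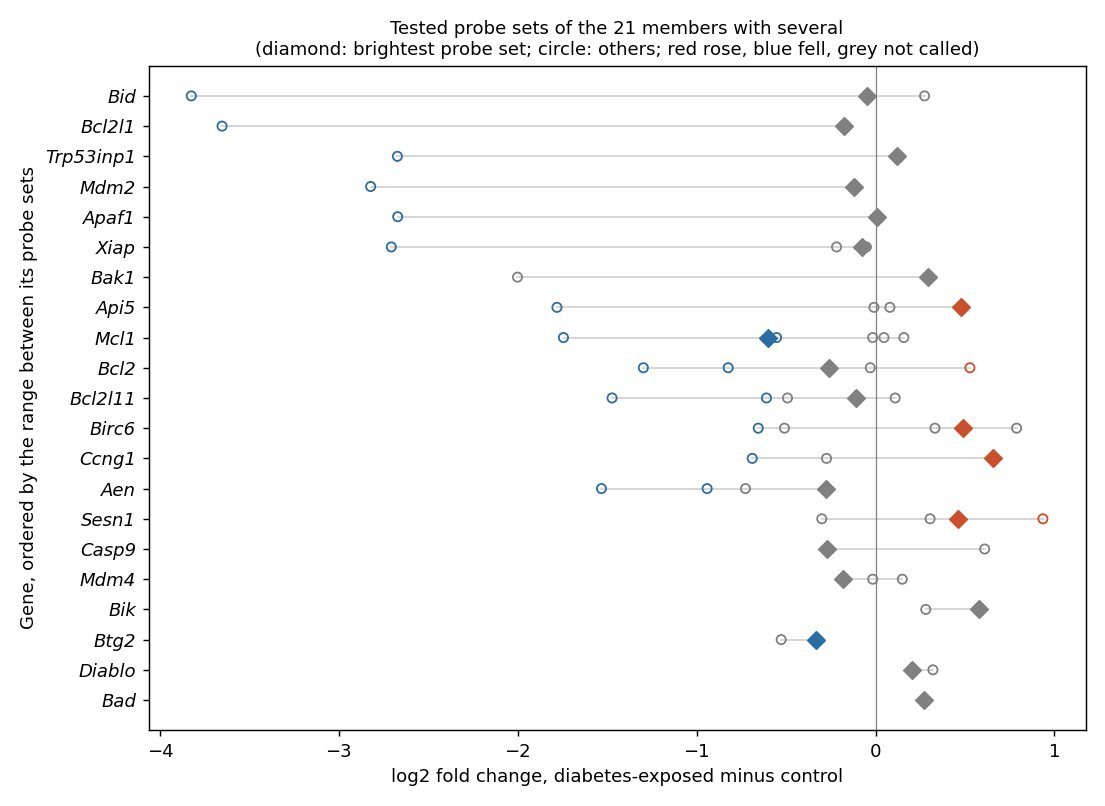
Log2 fold change (diabetes-exposed minus control) of every tested probe set of the 21 members with several, ordered by the span between them. The diamond is the brightest probe set, by which the gene is read, and circles are the others; red passed as higher, blue as lower, grey did not pass. Bid, Bcl2l1, Mdm2, Xiap, Trp53inp1 and Apaf1 have diamonds near 0 and a blue circle far to their left, and Ccng1, Bcl2, Birc6 and Api5 carry both red and blue.

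Several genes whose brightest probe set did not pass thus had a second one that fell steeply. Mdm2 at probe set 1427718_a_at read 646.5, 653.5 and 622.7 in the controls and 87.7, 231.2 and 36.7 in the exposed pools. The exposed replicates 1 and 3, the arrays with the highest spike ratios, were the lowest, and the log2 fold change was -2.82 (SE 0.54, limma adjusted p = 0.0046). With this ratio in the fit it was -0.21 (adjusted p = 0.91). Bcl2l1 at 1420887_a_at read 268.3, 309.2 and 110.6 against 13.3, 66.7 and 5.2, in the same order of pools, at -3.65 (SE 0.84, adjusted p = 0.010), and with the covariate at 0.62 (adjusted p = 0.79). Bid at 1448560_at read 139.1, 114.8 and 95.9 against 2.9, 45.3 and 4.1, at -3.82 (SE 0.94, adjusted p = 0.014), and with the covariate at 0.81 (adjusted p = 0.80). For these 3 probe sets replicate 2 lay nearest the controls. At Bcl2l1 and Bid, exposed replicates 1 and 3 read below 26.7, the lowest mean signal tested. Both probe sets passed the brightness filter through their control pools, and the size of these decreases is not well measured.

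In Xiap and Trp53inp1 the exposed pools did not follow that order at the steep probe sets. Among the controls, replicate 3, with the highest spike ratio of the controls (2.52), was the lowest at both. Xiap at 1456088_at read 399.2, 371.7 and 173.6 in the controls and 49.9, 40.7 and 45.6 in the exposed pools. No exposed pool came near the controls, and the log2 fold change was -2.71 (SE 0.33, limma adjusted p = 0.00085), or -2.58 with the spike ratio in the fit (adjusted p = 0.14). Trp53inp1 at 1416927_at read 144.2, 117.5 and 46.3 against 17.6, 9.1 and 18.9, at -2.67 (SE 0.55, adjusted p = 0.0062), and with the covariate at -3.40 (adjusted p = 0.24). All its exposed values lay below 26.7, the lowest mean signal tested. The order of these pools and the size of the decrease are therefore not well measured. In Apaf1 replicate 2 was again nearest the controls: 1450223_at read 398.2, 364.6 and 286 against 34.8, 101.1 and 45.7, at -2.67 (SE 0.37, adjusted p = 0.0013), and with the covariate at -0.92 (adjusted p = 0.39). Of Aen, probe sets 1450506_a_at and 1437373_at were at -1.53 and -0.94 (adjusted p = 0.0026 and 0.0079), and with the covariate at -0.34 and -0.35 (adjusted p = 0.68 and 0.74), with replicate 2 nearest the controls in both. Of Bcl2l11, 1435449_at and 1456006_at were at -1.47 and -0.61 (adjusted p = 0.0017 and 0.040), and with the covariate at -0.85 and -0.32 (adjusted p = 0.38 and 0.79), again with replicate 2 nearest. A second probe set of Bak1, 1425716_s_at, missed the threshold at -2.0 (adjusted p = 0.052), with overlapping groups. Which part of each transcript these probe sets read is not given in the sources used here.

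In 4 of the 21 genes, or 19%, probe sets passed in opposite directions, beside 8.58% of all 6515 genes with several. That comparison was likewise not matched for the number of probe sets per gene. Ccng1 rose at its brightest probe set, while 1450017_at fell from 856.7, 813.1 and 862.2 to 443.9, 778.6 and 414.6, with replicate 2 just below the controls (log2 fold change -0.69, SE 0.22, limma adjusted p = 0.037), and 1450016_at was at -0.27 (adjusted p = 0.20). The mean over its probe sets was -0.10 (adjusted p = 0.40). Bcl2 fell at 1422938_at and 1437122_at, at -1.30 and -0.82 on the log2 scale (adjusted p = 0.0048 and 0.0057), and rose at 1443837_x_at by 0.53 (adjusted p = 0.031). At 1437122_at the pools read 238.8, 305.5 and 295.2 against 155.7, 165.2 and 151.1, without overlap.

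Api5 rose at 1437593_x_at and fell at 1439214_a_at, which read 1125.2, 1174.9 and 853.2 in the controls and 201.5, 349.7 and 394.7 in the exposed pools. That decrease was -1.78 (SE 0.25, limma adjusted p = 0.0013), no exposed pool reached the lowest control, and another probe set, 1415813_at, stood at -0.0088 (adjusted p = 0.95). The mean over its 4 probe sets passed as a decrease, at -0.31 (adjusted p = 0.030), so the direction for Api5 on these arrays follows the choice of probe set. The authors reported Api5 as decreased in a separate array experiment on single embryos, and by quantitative PCR in embryos of other pregnancies. Birc6 fell at 1442495_at, a dim probe set, by 0.66 (adjusted p = 0.048). Mcl1 had 6 tested probe sets: 3 fell, at -0.60, -0.55 and -1.74 (adjusted p = 0.0036, 0.0021 and 0.00036), and the 3 whose names mark them as able to bind other transcripts lay between -0.016 and 0.16 and did not pass. At 1416881_at, the steepest, Mcl1 read 1566.1, 1532.2 and 1279.6 against 441.8, 535.1 and 345.4, far from overlap.

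**Figure D3:**
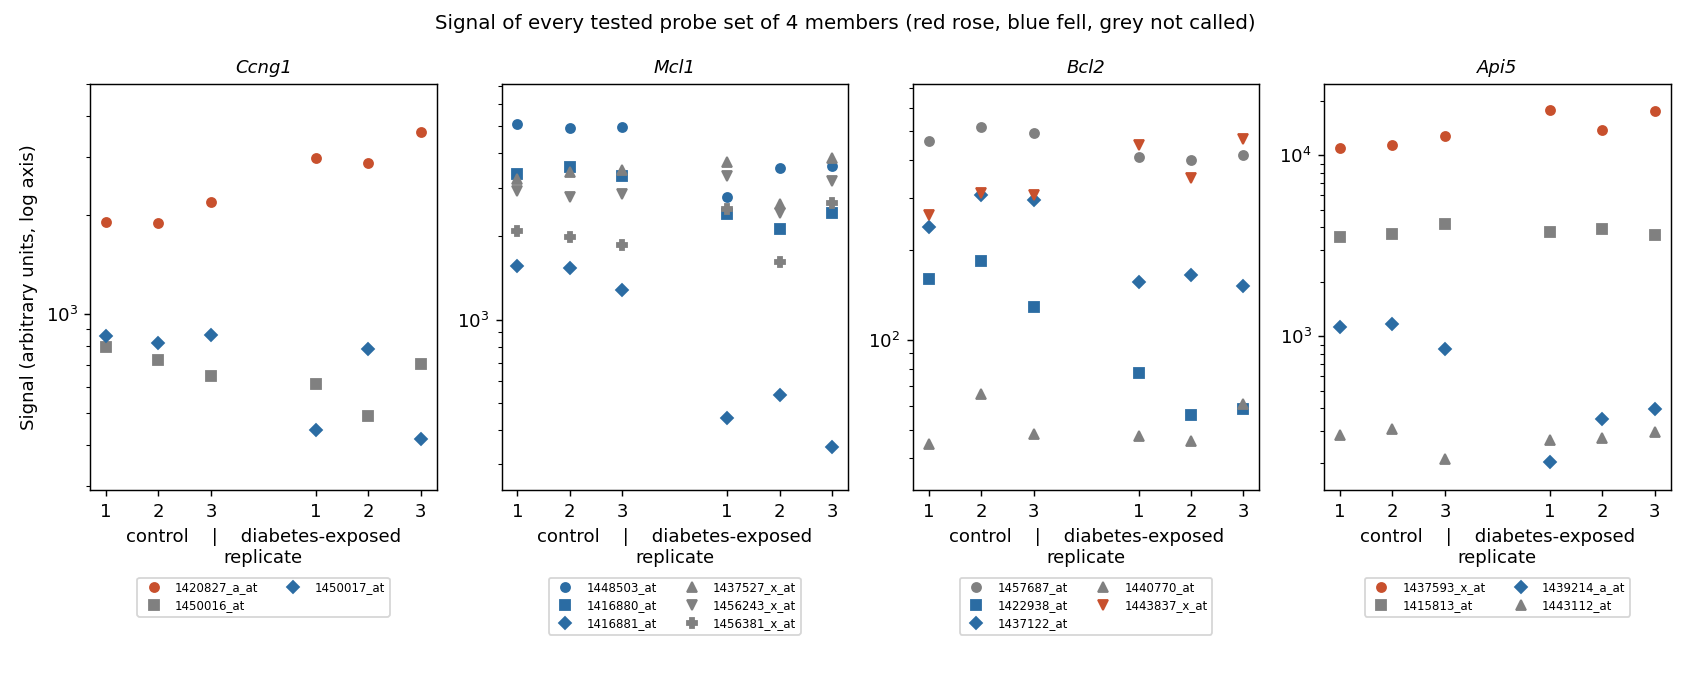
Signal in arbitrary units, on a log axis, of every tested probe set of Ccng1, Mcl1, Bcl2 and Api5 in the 3 control and 3 diabetes-exposed pools. Each symbol is 1 probe set, red passed as higher, blue as lower and grey did not pass; levels are to be compared between pools of 1 probe set, not between probe sets. Api5 at 1437593_x_at goes from 10983.7 to 12754.5 in the controls to 13770.6 to 17761.1 in the exposed pools, while 1439214_a_at goes from 853.2 to 1174.9 down to 201.5 to 394.7.

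The labelling ratio moved with the groups and with many of these values. Diabetes-exposed replicate 2, whose spike ratio was nearest the controls, was the exposed pool nearest the control mean in 15 of the 25 member probe sets that fell (60%) and in 7 of the 7 that rose (100%), beside 64.4% and 71.8% of all probe sets that fell and rose. When the spike ratio entered the fit as a covariate, 0 of the 38 genes passed in limma, beside 1.81% of all genes. An unadjusted p under 0.05 was seen for 3 genes, Zmat3 at -0.88, Perp at 0.53 and Bbc3 at -1.12. Of the 83 probe sets, 1 passed, 1416880_at of Mcl1 at -0.76 (adjusted p = 0.046), beside 1.21% of all probe sets. An unadjusted p under 0.05 was seen for 14 of the 83. The shares of all genes and probe sets at an unadjusted p were not taken, so the unadjusted counts have no background. The median log2 fold change of the members was then -0.029. With 6 arrays and a ratio that separates the groups, this fit leaves little to estimate the group difference from, and labelling and group cannot be fully told apart.

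The genes differed in how far they moved when the spike ratio entered. Zmat3 went from -0.98 to -0.88 (limma adjusted p = 0.10), Bbc3 from -0.98 to -1.12 (adjusted p = 0.24), Mcl1 from -0.60 to -0.43 (adjusted p = 0.37), Sesn1 from 0.46 to 0.35 (adjusted p = 0.48) and Birc2 from 0.39 to 0.32 (adjusted p = 0.41), and all kept their sign. Ccng1 went from 0.66 to 0.33 (adjusted p = 0.44) and Bcl2l2 from -0.79 to -0.24 (adjusted p = 0.79). Api5, Birc6, Ei24 and Casp2 changed sign, to -0.026, -0.13, 0.12 and 0.073, with adjusted p of 0.76 or more. With exposed replicate 2 as the only exposed pool, which is then assumed to vary as the controls do, 1 member passed as higher and 3 as lower, beside 17.9% of all genes in either direction: Ccng1, and Zmat3, Bbc3 and Mcl1.

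**Figure D4:**
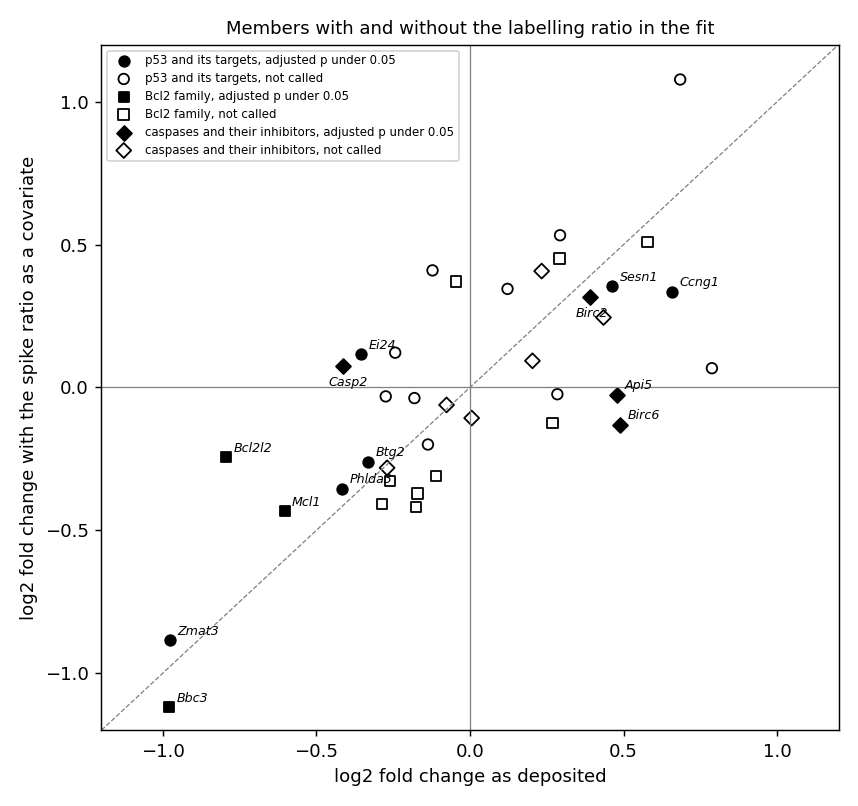
Log2 fold change of the 38 members as deposited (horizontal axis) and with the spike ratio in the fit (vertical axis). Circles are p53 and its targets, squares the Bcl2 family and diamonds caspases and their inhibitors; filled symbols had an adjusted p under 0.05 in limma without the covariate, and the dashed line marks equal values. Zmat3 and Bbc3 lie near the dashed line at -0.88 and -1.12, and Api5, Birc6, Ei24 and Casp2 lie across the horizontal axis from where they began; 0 of the 38 passed with the covariate.

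Other genes of the same pathways were read from 2 lists written from textbook knowledge. Of 51 other p53 pathway genes, 46 were on the array under this rule and 44 were tested; 6 rose and 18 fell (median -0.25), beside 17.6% higher and 19.9% lower over all genes, and under median centring 12 rose and 7 fell, beside 34.8% and 9.44%. Those that rose with the smallest adjusted p were Chek1, a checkpoint kinase of DNA replication (0.84, limma adjusted p = 0.0014), Trp53bp1, a mediator of double strand break repair (0.34, adjusted p = 0.013), and Trp63, a relative of p53 in epithelia (0.50, adjusted p = 0.016). Those that fell were Trp53inp2, a relative of Trp53inp1 that acts in autophagy (-1.02, adjusted p = 0.000595), Hipk2, a kinase that phosphorylates p53 (-0.60, adjusted p = 0.0012), and Pidd1, a p53 target that activates Casp2 (-1.33, adjusted p = 0.0013). Hipk2 was the 1 gene of this list that passed with the spike ratio in the fit, at -0.71 (adjusted p = 0.048).

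Of 65 other cell death genes, 57 were on the array and 46 were tested; 16 rose and 7 fell, with a median of 0.24, and under median centring 28 rose and 1 fell, beside the same shares of all genes. Among those that rose were Bnip3, a mitochondrial BH3-like protein of hypoxia and mitophagy (1.06, limma adjusted p = 0.00020), Vdac3, a channel of the outer mitochondrial membrane (0.65, adjusted p = 0.0011), and Birc5, which encodes survivin and is made in dividing cells (0.52, adjusted p = 0.0020). Among those that fell were Bag6, a chaperone that helps acetylate p53 (-2.04, adjusted p = 0.00031), Parp1, a sensor of DNA breaks that caspases cut (-0.63, adjusted p = 0.017), and Bcl2l13, a mitochondrial Bcl2 relative (-0.47, adjusted p = 0.020). Bnip3 and Bag6 passed with the spike ratio in the fit, at 0.91 and -1.15 (adjusted p = 0.029 and 0.036).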

How the data were processed

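RNA of 6 pools of whole embryos was labelled with a one-cycle protocol and hybridised to 1 array each. The deposited table holds linear signal intensities that the authors computed with GCOS and MAS5, of versions not given in the sources used here, and scaled to a common mean per array. Median signals were 82.5 to 103.3 in the controls and 74.1 to 78.9 in the exposed pools, and the number of arrays limits the precision. No detection calls were used.

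Log2 was taken with no further scaling, and the dimmest 33.3% of probe sets by mean log2 signal and 64 control probe sets were left out, which left 30025. Symbols came from the platform's table (34958 probe sets with 1 symbol, 932 with several, 9211 with none); 34754 gene numbers were found in a list of mouse genes, with 0 symbols changed. A gene was read at its brightest tested probe set with only its symbol. The group difference was fitted by limma 3.58.1 (R 4.3.3; lmFit, then eBayes with a variance trend), and p-values were adjusted over all 30025 by the Benjamini-Hochberg method; rose, fell and passed mean an adjusted p under 0.05. The spread is that between pools, each of which averages 3 embryos of different pregnancies. Whether pools of a group shared pregnancies is not clear from the sources used here. With 3 pools a side, an exact two-sided permutation test could reach 0.1 at best. For the fit, the spike ratio was averaged on the log2 scale over 8 pairs of probe sets. The procedure was tested on simulated data. Promoters were searched in 32851 RefSeq windows, of which 8.36% held a half-site; none is listed for Zmat3, Perp, Trp53inp1, Tnfrsf10b, Bik and Pmaip1. Python 3.11.15 and matplotlib 3.10.9 drew the figures.

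The members, lists, tests and alternatives were chosen with earlier results of these data known. All 40 members could be named; values of every pool were given for up to 5 members that rose and 5 that fell in each role, for Mdm2, Cdkn1a, Bcl2, Mcl1, Xiap, Casp9 and Api5, and for members with opposite calls. Of the other lists, up to 3 genes that rose and 3 that fell with the smallest adjusted p were named. Values of every pool for the death receptors and for second probe sets were chosen after being seen. Of 14 primitive erythroid markers, 12 were tested, 1 rose and 3 fell, with summed signals of 85726.7 to 93586.9 in the controls and 83234.1 to 102640 in the exposed pools. Of the 18 whole embryo markers 6 rose and 3 fell. Beside both lists stand 17.6% higher and 19.9% lower over all tested genes. Alternatives were 3 scalings, a pseudocount of 32, no filter or a filter of 50%, eBayes without trend, averaging a gene's probe sets, probe sets ending in _s_at or _x_at left out, the replicate number as a block, Welch's test of the methods, the spike ratio, and leaving out pools.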

Additional observations from a re-analysis of the deposited data

How the results depend on the processing

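The limits are few arrays and a labelling ratio that differed between the groups. Calls of Zmat3 and Bbc3 were lost only with Welch's test after adjustment and with the spike ratio in the fit. The pseudocount changed no member's call, and the cause of the other changes was not tested.

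With median centring, which moved the median of all genes to 0.32, 13 members rose and 2 fell, with a median of 0.22; by role 4 and 1 (p53), 3 and 1 (Bcl2 family) and 6 and 0 (caspases) rose and fell. Of other p53 pathway genes 12 rose and 7 fell, of other cell death genes 28 and 1, and of member probe sets 17 and 15. With quantile normalization, which moved it to 0.14, 8 members rose, with a median of 0.11; 2 p53 targets fell, 3 of the Bcl2 family rose, 2 other cell death genes fell and 11 probe sets rose. With cyclic loess 8 members rose, with a median of 0.065; 2 p53 targets fell, 3 of the Bcl2 family rose and 3 other cell death genes fell. With no filter 0 caspases and 4 other cell death genes fell. With no trend 4 members, 1 p53 target, 0 caspases and 1 other cell death gene fell, and 1 caspase and 2 other p53 pathway genes rose. With the mean of all probe sets 18 members fell (7, 7 and 4 by role), with a median of -0.30, and the shares of all genes were not taken there. Without probe sets ending in _s_at or _x_at 3 members, 1 p53 target and 3 probe sets rose and 0 caspases fell.

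With Welch's test and adjustment 0 members and 0 member probe sets passed, nor any by role, against 15 members unadjusted (6 rose, 9 fell); 2 other p53 pathway genes fell and 0 rose, and 1 other cell death gene rose and 0 fell. Unadjusted, 4 p53 targets rose, 5 of the Bcl2 family fell and 3 other cell death genes fell. With the spike ratio 0 members passed, nor any by role, with a median of -0.029; 0 other p53 pathway genes rose and 1 fell, 1 other cell death gene rose and 1 fell, and 0 member probe sets rose and 1 fell. Without diabetes-exposed replicates 1 and 3, 1 member rose and 3 fell, with a median of -0.029; by role 1 and 1, 0 and 2, and 0 and 0 rose and fell, with 2 and 9 other p53 pathway genes, 8 and 2 other cell death genes, and 2 and 15 probe sets.

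Leaving out each pool in turn, 3 to 6 members rose and 4 to 9 fell; 1 to 5 p53 targets fell, 0 to 1 of the Bcl2 family and 1 to 3 caspases rose and 0 to 1 caspases fell. Of other p53 pathway genes 1 to 6 rose and 11 to 19 fell, of other cell death genes 1 to 7 fell, and 4 to 10 probe sets rose and 17 to 26 fell, and the median log2 fold change of the members was -0.097 to -0.058.

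Log2 fold changes that changed sign were, with median centring, Bok 0.030, Aen 0.042, Casp9 0.047, Bcl2 0.057, Gadd45a 0.073, Mdm4 0.14, Bcl2l1 0.14, Pmaip1 0.15, Cdkn1a 0.18, Mdm2 0.19, Bcl2l11 0.21, Xiap 0.24 and Bid 0.27. With quantile normalization they were Bcl2 0.0069, Bcl2l11 0.0083, Bcl2l1 0.019, Casp9 0.020, Mdm2 0.057, Gadd45a 0.074, Pmaip1 0.14, Cdkn1a 0.16 and Bid 0.24, and with cyclic loess Pmaip1 0.055, Cdkn1a 0.075 and Bid 0.16. With the mean of all probe sets they were Ccng1 -0.10, Api5 -0.31, Bak1 -0.86, Trp53inp1 -1.28, Apaf1 -1.33 and Casp9 0.17, and without _s_at and _x_at Api5 -0.0088 and Sesn1 -0.30. With the spike ratio they were Eda2r -0.024, Api5 -0.026, Apaf1 -0.11, Bad -0.12, Birc6 -0.13, Casp2 0.073, Ei24 0.12, Gadd45a 0.12, Bid 0.37 and Mdm2 0.41. Without diabetes-exposed replicates 1 and 3 they were Apaf1 -0.085, Bid 0.18 and Mdm2 0.18. With each pool left out in turn, Eda2r ranged from -0.072 to 0.61, Apaf1 from -0.085 to 0.051 and Bid from -0.16 to 0.012.

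The same replicate numbers did not pair the pools (correlations of their deviations 4.94e-05, 0.0761 and 0.118). With the replicate number as a block 5 members rose and 7 fell, Btg2 being lost (adjusted p = 0.079), and 7 and 24 probe sets.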
